A study of Mus musculus with 12 samples.

Results

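The Syk pathway genes described here are Syk, Card9, Bcl10, Malt1, Plcg2, Inpp5d, Ptpn6 and Fgr, 8 of the 14807 genes that a single-symbol row of the array table names. They were chosen by name, as the kinase through which the dead cell receptor DNGR-1 and the fungal glucan receptor dectin-1 signal, together with its partners, its phosphatases and the Src family. The rule named 9 genes, and no row carried the symbol of Lyn alone, so Lyn is not analysed here. No gene of the 8 had a second row of its own.

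The data were 12 expression arrays of CD8α+-like dendritic cells sorted as CD24hi, CD11blow and B220- from C57BL/6 bone marrow after 10 days with Flt3L at 100 ng/ml. Such cells model the type 1 conventional dendritic cells (cDC1) of the mouse spleen. The 4 groups of 3 arrays were untreated wild-type (WT) cells, WT cells kept 5 h with dead cells, untreated Clec9a gfp/gfp cells and Clec9a gfp/gfp cells kept 5 h with dead cells. Clec9a encodes DNGR-1, and the gfp/gfp cells lack it. The dead cells, of a type not stated in the labels, had received UVC at 240 mJ/cm2 and had then been cultured for 24 h. Untreated cells are labelled 0 h, so each response joins the effect of the dead cells with that of 5 h in culture. The labels do not say whether replicates came from separate cultures or mice, so the p-values reflect no more than the spread of these samples, which may be technical.

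Syk is a tyrosine kinase that docks on phosphorylated ITAM or hemITAM motifs of receptors or their adaptor chains, which Src family kinases such as Fgr phosphorylate. Syk activates the phospholipase Plcγ2, which raises calcium, and the adaptor Card9, which with Bcl10 and the paracaspase Malt1 forms a complex that leads to NF-κB. The lipid phosphatase SHIP-1, encoded by Inpp5d, and the tyrosine phosphatase SHP-1, encoded by Ptpn6, restrain the pathway. In dendritic cells the pathway is known for antifungal responses through dectin-1 and, downstream of DNGR-1, for the cross-presentation of antigens from dead cells.

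Upstream stretches are shown for the 3 genes that fell in both genotypes on every scale tried, Inpp5d, Plcg2 and Fgr. Each covers the 250 bases before the gene start in the RefSeq promoter table for GRCm38.p6, plus strand, 5′ to 3′, and capitals mark GGAAGT on either strand, the core bound by ETS factors such as PU.1. The Inpp5d stretch is chr1:87620062-87620311, that of Plcg2 is chr8:117498025-117498274 and that of Fgr is chr4:132973845-132974094.
Inpp5d: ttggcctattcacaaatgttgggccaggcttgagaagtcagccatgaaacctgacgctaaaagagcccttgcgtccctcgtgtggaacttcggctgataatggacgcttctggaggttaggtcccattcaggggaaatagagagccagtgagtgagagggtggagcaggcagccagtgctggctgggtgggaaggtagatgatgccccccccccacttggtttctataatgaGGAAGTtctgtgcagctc
Plcg2: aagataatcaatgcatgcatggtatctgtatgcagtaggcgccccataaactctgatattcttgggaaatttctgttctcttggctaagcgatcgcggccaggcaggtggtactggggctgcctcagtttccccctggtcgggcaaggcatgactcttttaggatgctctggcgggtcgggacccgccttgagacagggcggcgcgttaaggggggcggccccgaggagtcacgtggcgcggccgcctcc
Fgr: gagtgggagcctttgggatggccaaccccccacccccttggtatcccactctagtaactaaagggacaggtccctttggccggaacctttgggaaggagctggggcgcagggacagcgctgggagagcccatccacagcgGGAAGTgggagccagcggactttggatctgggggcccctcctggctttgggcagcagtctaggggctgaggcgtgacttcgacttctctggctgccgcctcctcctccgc

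GGAAGT began 18 bases before the gene start of Inpp5d and 110 bases before that of Fgr, and the Plcg2 stretch held none. The table holds windows of 300 bases, the last 50 after the gene start, for 7 of the 8 genes. GGAAGT lay in a window of 6 of these 7 genes, those of Inpp5d, Fgr, Card9, Bcl10, Ptpn6 and Syk. By window this was 6 of 8, and of all 32851 windows 23.8% held it. The motif was chosen after the windows had been read, and a match is a description of the letters only. A pattern of NF-κB sites and one of interferon-stimulated response elements, also searched on both strands, were in 5.56% and 3.44% of all windows and in none of the 8 windows of these genes. The table holds no window for Malt1.

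Values are the intensity deposited by the authors, on a linear scale, and differences are of log2(intensity + 16), with the standard error (SE) from limma. Calls were made where the p-value, adjusted by Benjamini-Hochberg over all 23238 rows, was under 0.05. The 6 untreated arrays had an upper quartile of 396 to 437 and the 6 with dead cells one of 231 to 259, and the method behind the deposited scale is not given in the sources used here. Each response was therefore also read after quantile normalization, which moved the median of all rows by 0.15 in either genotype, and after a shift to one median, which moved it by 0.22 in WT and 0.24 in Clec9a gfp/gfp cells. The targeted gene checked the labels: without treatment the intensity of Clec9a was 2625 ± 38.3 (SD, n = 3) for WT and 2.68 ± 2.32 (SD, n = 3) for Clec9a gfp/gfp. All 8 measured cDC1 markers were above 16 in untreated WT cells, among them Xcr1 at 3336 ± 230.2 (SD, n = 3). This level does not set cell types apart, since 11.5% to 15.2% of rows lay below 16 on an untreated array. No measured macrophage, neutrophil or B cell marker had an untreated mean below 16 either.

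Malt1 and Inpp5d moved most of the 8 genes with dead cells, in opposite directions. In WT cells 2 of the 8 rose and 4 fell, where 45.5% of all rows were called (14.5% up, 31.0% down). Without DNGR-1, 2 rose and 5 fell, where 48.7% were called (16.6% up, 32.1% down). These shares include rows without a symbol. With the brightest row of each gene alone, 8695 of 14807 genes were called in WT cells, 2745 up and 5950 down. In Clec9a gfp/gfp cells 9397 were called, 3327 up and 6070 down. Untreated and dead cell arrays did not overlap for 6 of the 8 in WT cells, as for 54.9% of all rows, and for 6 in Clec9a gfp/gfp cells, as for 56.0% of all rows. The median of the 8 was -0.17 in WT and -0.41 in Clec9a gfp/gfp cells, against -0.09 and -0.08 for all single-symbol genes. With quantile normalization 4 rose and 3 fell in WT cells and 2 rose and 3 fell in Clec9a gfp/gfp cells, and the medians turned to 0.24 and 0.09. All rows turned likewise: of 23238, quantile normalization gave 6277 calls up and 5635 down with DNGR-1 and 6620 up and 5643 down without it, against 3368 and 7213, and 3856 and 7457, on the deposited scale. The counts given with quantile normalization for the lists further on are to be read against these.

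**Figure D1:**
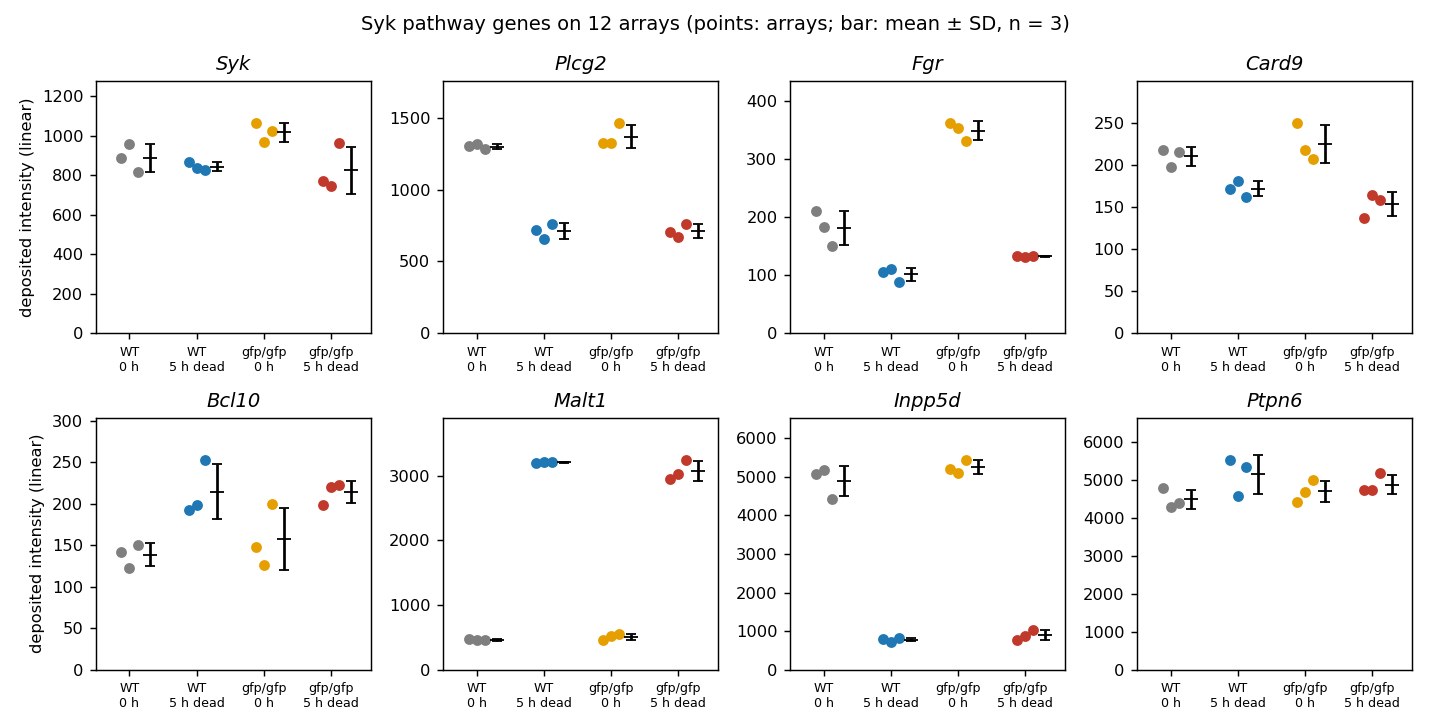
Deposited intensity (linear, axis from 0) of the 8 genes on each array, by group. Points are arrays and black bars the mean ± SD of 3. Malt1 reached at most 551 untreated and at least 2953 with dead cells, and Inpp5d at least 4431 untreated and at most 1028 with dead cells, while Fgr was higher in untreated Clec9a gfp/gfp cells than in any other group.

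Syk itself, the kinase at the head of the pathway, varied little. Its intensity was 887, 958 and 815 in untreated WT arrays and 866, 834 and 824 with dead cells. Without DNGR-1 it was 1063, 967 and 1021 untreated and 769, 744 and 961 with dead cells. The WT groups overlapped, and the difference of -0.07 ± 0.11 (adjusted p = 0.639 in limma) did not pass, with a 95% interval of -0.31 to 0.17. In Clec9a gfp/gfp cells the groups did not overlap on the deposited scale, and the log2 difference was -0.31 ± 0.11 (adjusted p = 0.0375 in limma), a fall. This direction depended on the scaling, since quantile normalization gave 0.32 in WT cells (adjusted p = 0.0094 in limma) and 0.13 in Clec9a gfp/gfp cells (adjusted p = 0.254 in limma), and the shift to one median gave 0.15 and -0.07. The call in Clec9a gfp/gfp cells was also lost with only the arrays compared (adjusted p = 0.0952 in limma) and with the replicate block (adjusted p = 0.0648 in limma). It was lost too without Clec9a gfp/gfp dead cell replicates 1 and 2, Clec9a gfp/gfp untreated replicates 1 and 3 or WT untreated replicate 1 (adjusted p from limma of 0.0519 to 0.135).

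Plcg2, whose product Syk activates to release calcium, fell in both genotypes. Its intensity was 1303, 1317 and 1282 in untreated WT arrays and 719, 655 and 763 with dead cells. The Clec9a gfp/gfp values were 1323, 1324 and 1465 untreated and 707, 667 and 759.5 with dead cells. No array with dead cells reached any untreated array. The difference was -0.86 ± 0.09 in WT cells (adjusted p = 9.56e-06 in limma) and -0.93 ± 0.09 in Clec9a gfp/gfp cells (adjusted p = 4.59e-06 in limma). With quantile normalization it was -0.51 and -0.54, and it was called there too.

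Fgr, a Src family kinase of myeloid cells, fell with dead cells from a level that differed between the genotypes. Its intensity was 210.3, 182 and 150.4 in untreated WT arrays and 105, 110 and 88.5 with dead cells. Arrays of Clec9a gfp/gfp cells gave 362, 353 and 331 untreated and 132, 131 and 132 with dead cells. The response was -0.74 ± 0.12 in WT cells (adjusted p = 0.000262 in limma) and -1.30 ± 0.12 in Clec9a gfp/gfp cells (adjusted p = 2.77e-06 in limma). The groups did not overlap in either genotype. With quantile normalization the values were -0.33 and -0.65, both called.

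Of the complex that carries the signal to NF-κB, Malt1 and Bcl10 rose, Malt1 by far more, and Card9 fell on the deposited scale. The intensity of Malt1 was 483, 464 and 453 in untreated WT arrays and 3201, 3217 and 3211 with dead cells. Cells lacking DNGR-1 gave 458, 516 and 551 untreated and 2953, 3023 and 3250 with dead cells. The groups lay far apart in both genotypes. Malt1, a protease and scaffold, rose by 2.74 ± 0.09 in WT cells (adjusted p = 4.01e-09 in limma), a 6.88-fold ratio of mean intensities, and by 2.56 ± 0.09 in Clec9a gfp/gfp cells (adjusted p = 5.70e-09 in limma), a 6.05-fold ratio. Among the 14807 single-symbol genes it ranked 130th by rise in WT and 137th in Clec9a gfp/gfp cells. Its rise lay between 2.46 and 3.11 over both genotypes and the 11 settings other than leaving out an array, and it was called in each.

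Bcl10, the adaptor that links Card9 to Malt1, rose by a smaller amount. Its intensity was 142, 123 and 149.8 in untreated WT arrays and 192, 198 and 253 with dead cells, with no overlap. Without DNGR-1 it was 148, 126 and 199 untreated and 199, 220.3 and 223 with dead cells, where the highest untreated array reached the lowest with dead cells. The difference was 0.57 ± 0.16 in WT cells (adjusted p = 0.011 in limma) and 0.43 ± 0.16 in Clec9a gfp/gfp cells (adjusted p = 0.0431 in limma). Quantile normalization gave 1.10 and 1.01, both called, and a pseudocount of 1 ended the Clec9a gfp/gfp call (adjusted p = 0.0513 in limma). The call in Clec9a gfp/gfp cells was lost without any Clec9a gfp/gfp dead cell replicate, Clec9a gfp/gfp untreated replicates 1 and 2, WT dead cell replicate 2 or WT untreated replicates 1 and 3 (adjusted p from limma of 0.0522 to 0.155).

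Card9, the adaptor through which Syk-coupled receptors reach Bcl10 and Malt1, had no direction that held across scalings. Its intensity was 218, 197 and 215 in untreated WT arrays and 172, 180.3 and 162 with dead cells. The Clec9a gfp/gfp values were 249.7, 218 and 206 untreated and 137, 165 and 158 with dead cells. On the deposited scale the groups were apart in both genotypes, and the differences were -0.27 ± 0.10 in WT cells (adjusted p = 0.0464 in limma) and -0.51 ± 0.10 in Clec9a gfp/gfp cells (adjusted p = 0.0013 in limma). With quantile normalization they were 0.33 (adjusted p = 0.0153 in limma) and 0.11 (adjusted p = 0.405 in limma), and with the shift to one median -0.05 and -0.27. The WT call was lost without any WT array, Clec9a gfp/gfp dead cell replicates 2 and 3 or Clec9a gfp/gfp untreated replicate 2 (adjusted p from limma of 0.0507 to 0.127).

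The inhibitory phosphatases parted from each other. Inpp5d, which encodes SHIP-1, had an intensity of 5067, 5163 and 4431 in untreated WT arrays and 785, 727 and 810 with dead cells. Arrays of Clec9a gfp/gfp cells gave 5207, 5086 and 5438 untreated and 775, 863 and 1028 with dead cells. Untreated arrays and arrays with dead cells lay far apart. Inpp5d changed by -2.63 ± 0.11 in WT cells (adjusted p = 1.58e-08 in limma), a mean 6.31-fold lower, and by -2.55 ± 0.11 in Clec9a gfp/gfp cells (adjusted p = 1.81e-08 in limma), a mean 5.90-fold lower. It ranked 340th of 14807 genes by fall in WT and 406th in Clec9a gfp/gfp cells. Its value lay between -2.66 and -2.31 over both genotypes and the 11 settings other than leaving out an array, and it was called in each.

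Ptpn6, which encodes SHP-1, was close to level on the deposited scale. Its intensity was 4784, 4300 and 4384 in untreated WT arrays and 5537, 4574 and 5353 with dead cells. Cells lacking DNGR-1 gave 4421, 4686 and 4995 untreated and 4728, 4737 and 5185 with dead cells. The groups overlapped in both genotypes, and neither the WT difference of 0.20 ± 0.10 (adjusted p = 0.137 in limma) nor that of 0.06 ± 0.10 in Clec9a gfp/gfp cells (adjusted p = 0.686 in limma) passed. The shift to one median gave 0.41 and 0.29, both called, and without WT dead cell replicate 2 the WT difference was 0.28 (adjusted p = 0.0438 in limma).

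**Figure D2:**
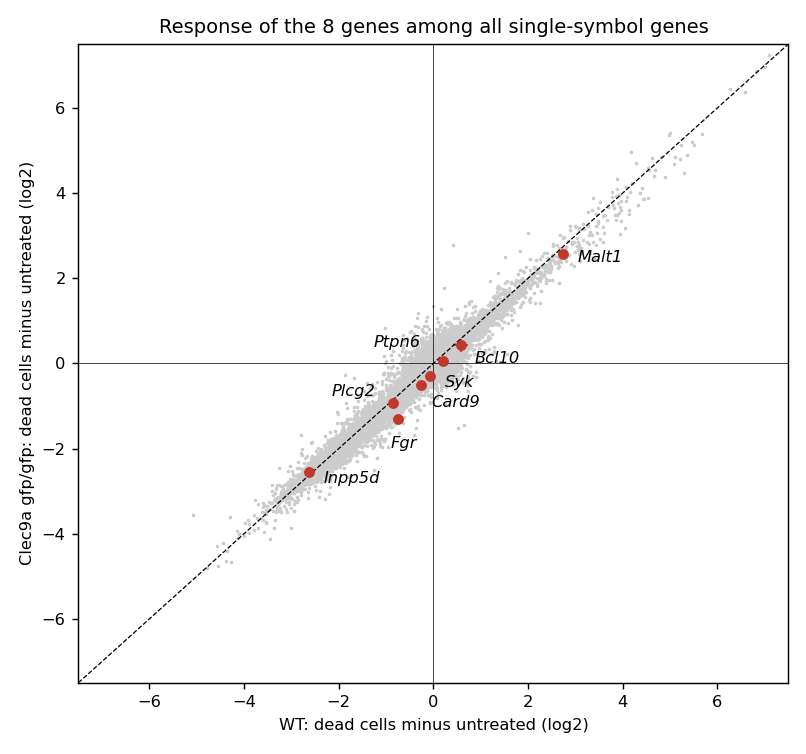
Response to dead cells (log2 difference) in WT cells on the horizontal and in Clec9a gfp/gfp cells on the vertical axis. Grey points are all single-symbol genes, red points the 8 genes with SE bars that hardly exceed the points, and the dashed line marks equal responses. Malt1 (2.74 and 2.56) and Inpp5d (-2.63 and -2.55) lie near the line, and Fgr (-0.74 and -1.30) lies below it. The signs of Syk and Card9 turn with quantile normalization.

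Whether the response of these genes differed without DNGR-1 was tested as the Clec9a gfp/gfp response minus the WT response. None of the 8 passed in limma, where 0.0043% of all rows did. At an unadjusted p under 0.05 Fgr alone of the 8 would have passed, as would 997 of all 23238 rows. For Fgr the difference was -0.56 ± 0.17 (adjusted p = 0.999 in limma), with a 95% interval of -0.92 to -0.19. For Syk it was -0.23 (interval -0.57 to 0.11), for Card9 -0.24 (-0.55 to 0.07) and for Malt1 -0.18 (-0.45 to 0.09). For Inpp5d it was 0.08 (-0.27 to 0.43), for Ptpn6 -0.14 (-0.45 to 0.17), for Plcg2 -0.07 (-0.35 to 0.20) and for Bcl10 -0.15 (-0.64 to 0.34). The 8 intervals thus left out a difference of 1 on the log2 scale, a 2-fold change, in either direction.

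Between the genotypes, Fgr stood apart in untreated cells and the other 7 genes did not pass. Its mean was 349 ± 15.9 without DNGR-1 and 181 ± 30.0 with it (SD, n = 3 each), a 1.93-fold ratio, and the groups did not overlap. The log2 difference was 0.90 ± 0.12 (adjusted p = 0.0418 in limma), where 0.0301% of all rows were called, 7 in number, and 0.0258% were called higher. It was the 18th largest rise of 14807 genes in this comparison. The lowest of the 3 Clec9a gfp/gfp values was 331 and the highest WT value 210.3. The call was kept without WT untreated replicate 1 or WT dead cell replicate 3 and lost without each of the other 10 arrays, at adjusted p from limma up to 0.241, while the difference stayed between 0.78 and 1.00. It was lost too with quantile normalization (0.78, adjusted p = 0.0819 in limma), with a pseudocount of 1 (0.95, adjusted p = 0.088 in limma) and with only the arrays compared (adjusted p = 0.450 in limma).

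With dead cells Fgr was 132 ± 0.490 without DNGR-1 and 101 ± 11.1 with it (SD, n = 3 each), again without overlap. The difference of 0.34 ± 0.12 did not pass (adjusted p = 0.778 in limma), and 0.0043% of all rows were called. Averaged over the treatments Fgr was higher by 0.62 ± 0.08 (adjusted p = 0.0415 in limma), where 0.0516% of rows were called, 0.0473% higher. That call was kept without WT untreated replicate 1 and lost without each of the other 11 arrays, at adjusted p from limma up to 0.154, with the difference between 0.56 and 0.67. None of the other 7 was called in the average, their differences running from -0.03 for Card9 to 0.15 for Inpp5d.

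Of the others, Syk and Plcg2 were also without overlap between untreated genotypes, as were 11.3% of all rows. Syk was 1017 ± 48.4 without DNGR-1 and 887 ± 71.9 with it (SD, n = 3 each), a difference of 0.20 (95% interval -0.04 to 0.44) with adjusted p = 1 in limma. Plcg2 differed by 0.07 (interval -0.12 to 0.27). With dead cells Fgr alone was without overlap between the genotypes, as were 8.65% of all rows.

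**Figure D3:**
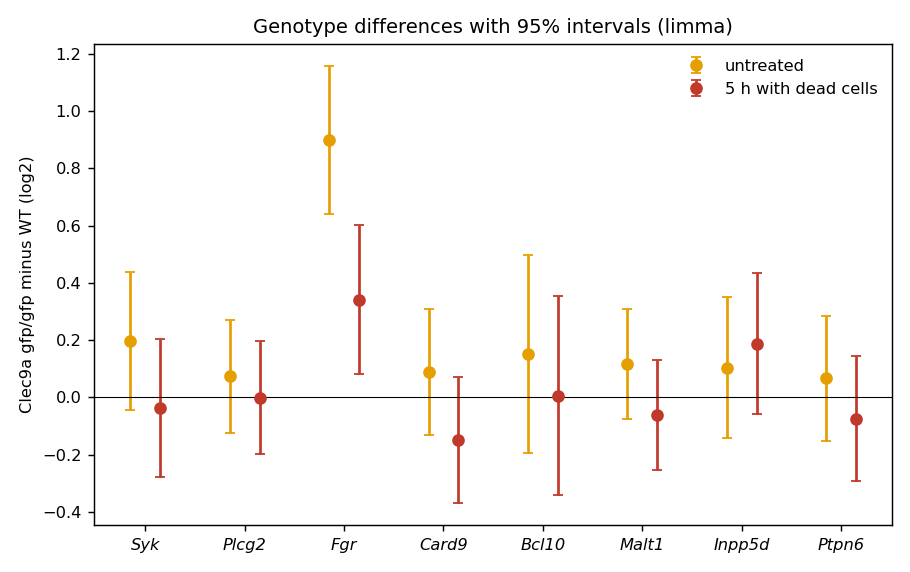
Genotype difference (Clec9a gfp/gfp minus WT, log2) of the 8 genes in untreated cells and after 5 h with dead cells, with 95% intervals from limma. Fgr, at 0.90 untreated and 0.34 with dead cells, has intervals above 0, and the intervals of the other 7 cross 0.

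Ordered by mean level, the genes had several patterns across the 4 groups. For Malt1 and Bcl10 both groups with dead cells had higher means than both untreated groups, and for Inpp5d, Plcg2 and Card9 lower ones. Genotypes within a treatment overlapped for these 5 genes, except for Plcg2 in untreated cells. For Fgr the order was untreated Clec9a gfp/gfp, untreated WT, Clec9a gfp/gfp with dead cells and WT with dead cells, and the 3 arrays of each group were apart from those of its neighbours. For Syk the untreated Clec9a gfp/gfp arrays lay above all others and the other 3 groups overlapped, and for Ptpn6 neighbouring groups overlapped.

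The genes with the most similar profile were found by the root mean square difference of centred log2 values over the 12 arrays, among 10396 other genes with a mean intensity of 64 or more. For Malt1 they were Dhx58, which encodes the RNA sensor LGP2, at 0.06, and Axl, a receptor tyrosine kinase, at 0.10. For Inpp5d they were Prkag2, a subunit of AMP-activated kinase, at 0.07 and the ETS factor gene Fli1 at 0.08. For Fgr they were Pecam1, an adhesion receptor with inhibitory motifs, and Mrpl20, a mitochondrial ribosomal protein, both at 0.19, and 3 genes lay within 0.2. Within 0.2 lay 50 genes for Malt1, 303 for Inpp5d, 388 for Bcl10, 1312 for Card9, 1457 for Syk and 1561 for Plcg2. The number for Ptpn6, whose values moved little, was 2177. For Syk the nearest were Spg11 and Fnbp1 (both 0.06), for Plcg2 Snx30 and Rtn3 (both 0.05), for Card9 Dtnb and Zfp113 (both 0.09), for Bcl10 Zfp516 (0.11) and 2310022B05Rik (0.13), and for Ptpn6 Tmem168 (0.04) and Spata2 (0.05).

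Lists of genes around the 8 are given by their counts and medians. They are to be read against the counts called with 1 row per gene, the shares of all rows and the medians of all genes above. Receptors and adaptors that couple to Syk were mostly lower with dead cells. Of 14 measured, 9 fell and 2 rose in WT cells (median -0.77) and 9 fell and 1 rose in Clec9a gfp/gfp cells (median -0.84). Quantile normalization gave 8 falls and 2 rises in WT cells and 7 falls and 1 rise in Clec9a gfp/gfp cells. On the deposited scale the highest value in the list was 1.59 in WT and 1.77 in Clec9a gfp/gfp cells. The 14 include Hcst, whose product lacks an ITAM. Fcgr3, an activating Fc receptor, changed by -3.40 ± 0.20 in WT and -3.46 ± 0.20 in Clec9a gfp/gfp cells. Clec4n, which encodes dectin-2, changed by -3.29 ± 0.17 and -3.15 ± 0.17, Trem2 by -2.64 ± 0.25 and -3.02 ± 0.25, and Fcgr4 by -2.42 ± 0.20 and -2.55 ± 0.20. Their adjusted p-values in limma were 3.93e-06 or lower.

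Among these receptors Clec7a, which encodes dectin-1, differed between the genotypes. It was at 301.2 ± 31.2 in untreated WT and 3020 ± 613 in untreated Clec9a gfp/gfp cells, and at 479 ± 40.0 and 1083 ± 32.3 with dead cells (SD, n = 3 each). The untreated difference was 3.24 ± 0.15 (adjusted p = 4.04e-06 in limma), and that with dead cells was 1.15 ± 0.15 (adjusted p = 0.0614 in limma). Clec9a itself differed by -7.15 and -6.35, values that understate the ratio because it lay below the added 16 in Clec9a gfp/gfp cells. Fgr and Clec7a were both higher in untreated cells that lack DNGR-1, while Syk, Card9, Bcl10 and Malt1 were not called there. Clec7a lies on chromosome 6, as does the targeted Clec9a, and Fgr lies on chromosome 4. For Clec7a, effects of the altered locus and of the lack of DNGR-1 cannot be told apart in this design.

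Of 16 measured kinases and adaptors downstream of Syk, 6 rose and 7 fell in WT cells and 5 rose and 7 fell in Clec9a gfp/gfp cells. The list's median was -0.25 and -0.36, and 0.09 in either genotype with quantile normalization, so it had no settled direction. Pik3cg, a phosphoinositide 3-kinase subunit, changed by -2.89 ± 0.12 and -2.45 ± 0.12 in WT and Clec9a gfp/gfp cells. Btk, a Tec family kinase, changed by -1.76 ± 0.13 and -1.77 ± 0.13 (-1.16 and -1.09 with quantile normalization), and Pik3cd by -0.76 ± 0.09 and -0.94 ± 0.09 (-0.39 and -0.51). Pik3ap1, the adaptor BCAP, rose by 1.24 ± 0.08 and 1.12 ± 0.08. Adjusted p-values of these genes in limma were 1.87e-05 or lower.

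Of the 4 other Src family kinases measured, 2 rose in WT cells, and 3 rose and 1 fell in Clec9a gfp/gfp cells. Src rose by 1.61 ± 0.09 in both genotypes (adjusted p = 8.67e-08 and 8.50e-08 in limma), and Fyn by 0.97 ± 0.08 and 0.80 ± 0.08 (adjusted p = 1.52e-06 and 6.85e-06 in limma). Yes1, at 0.23 ± 0.11 and 0.29 ± 0.11, passed in Clec9a gfp/gfp cells alone (adjusted p = 0.107 and 0.0498 in limma), and the call was lost without each of 10 arrays, all but 2. With quantile normalization it passed in WT cells too (0.31). Blk, at -0.20 ± 0.11 and -0.49 ± 0.11, also passed in Clec9a gfp/gfp cells alone (adjusted p = 0.182 and 0.00324 in limma), and with quantile normalization in neither (0.07 and -0.17). Its intensity was 103, 109 and 105 in untreated WT and 130.2, 114 and 145 in untreated Clec9a gfp/gfp arrays, without overlap, and it was not called between them.

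The partners of the Malt1 complex and the substrates of its protease were split. Of 12 measured, 5 rose and 5 fell in WT cells and 6 rose and 5 fell in Clec9a gfp/gfp cells, with medians of 0.02 and 0.13. Tnfaip3, which encodes the NF-κB inhibitor A20 that Malt1 cleaves, rose by 1.25 ± 0.11 and 1.38 ± 0.11, and Traf2 by 1.37 ± 0.12 and 1.14 ± 0.12. Card10, the Card9 relative of non-immune cells, changed by -1.85 ± 0.15 and -1.87 ± 0.15, and Tab1, a partner of the kinase TAK1, by -1.59 ± 0.14 and -1.92 ± 0.14. Their adjusted p-values in limma were 1.14e-05 or lower.

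The calcium and NFAT branch, which lies downstream of Plcγ2, fell with Plcg2. Of 9 measured genes 8 fell and 1 rose in each genotype, with medians of -0.77 and -0.85, and 5 fell and 1 rose in each with quantile normalization. Nfatc2 changed by -2.22 ± 0.12 in both, Rasgrp3 by -2.15 ± 0.13 and -2.28 ± 0.13, and the IP3 receptor gene Itpr3 by -1.23 ± 0.11 and -1.26 ± 0.11 (-0.61 and -0.57 with quantile normalization). Ppp3ca, a catalytic subunit of calcineurin, changed by -1.13 ± 0.08 and -1.03 ± 0.08. Their adjusted p-values in limma were 3.30e-06 or lower.

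Genes listed as negative regulators, Inpp5d and Ptpn6 aside, fell more often than they rose. Of 13 measured, 8 fell and 2 rose in each genotype, with medians of -0.89 and -1.04. The counts were the same with quantile normalization. The list also names Ptprc, Ptprj and Ptpn11, whose products can promote signalling too. Ptpn22, a phosphatase of Src family kinases, changed by -2.44 ± 0.15 and -2.49 ± 0.15, the adaptor Dok3 by -2.42 ± 0.16 and -2.41 ± 0.16, and Ubash3b, a phosphatase that acts on Syk, by -2.33 ± 0.14 and -2.10 ± 0.14. Dok1 rose by 2.04 ± 0.09 and 1.77 ± 0.09. Adjusted p-values of these genes in limma were 2.89e-07 or lower.

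Inhibitory receptors that recruit SHP-1 or SHIP-1 fell with Inpp5d. Of 11 measured, 9 fell and 1 rose in WT cells and 9 fell and 0 rose in Clec9a gfp/gfp cells, with medians of -0.85 and -0.95, and 5 fell and 1 rose in each with quantile normalization. Sirpa, the receptor for CD47, changed by -3.16 ± 0.17 and -3.35 ± 0.17, the sialic acid receptor gene Cd33 by -3.06 ± 0.20 and -3.17 ± 0.20, Lair1 by -2.31 ± 0.14 and -2.46 ± 0.14, and Pilra by -3.26 ± 0.23 and -2.45 ± 0.23 (adjusted p from limma of 4.07e-06 or lower). Pecam1, the gene nearest to Fgr in profile, changed by -0.85 ± 0.13 and -0.95 ± 0.13, and these calls were lost with quantile normalization (-0.29 and -0.20). It was 444 ± 42.1 in untreated Clec9a gfp/gfp and 258 ± 37.0 in untreated WT cells, and 223 ± 30.1 and 135 ± 14.0 with dead cells (SD, n = 3 each). Averaged over treatments it was higher in Clec9a gfp/gfp cells by 0.70 ± 0.09 (adjusted p = 0.0415 in limma), a call kept without 2 of the 12 arrays, with adjusted p up to 0.154 without the others.

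**Figure D4:**
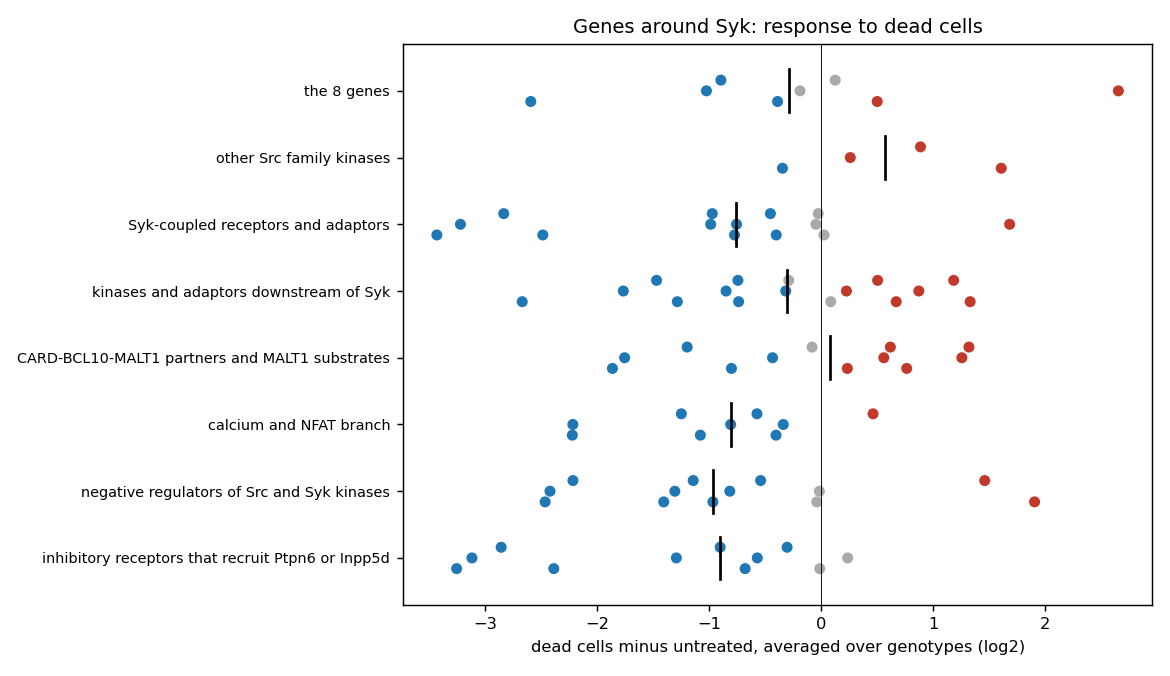
Response to dead cells averaged over genotypes (log2) for the 8 genes and the 7 lists around them, 1 point per gene. Of all rows 56.6% were called in this average, 22.1% up and 34.6% down, and of the 8 genes 2 rose and 4 fell. Red points rose and blue points fell at an adjusted p under 0.05 in limma on the deposited scale, grey points did not pass, and black lines are medians, which run from -0.97 for the negative regulators to 0.57 for the other Src family kinases. The medians of the 8 genes and of the downstream kinases and adaptors, and the signs of Blk, Card9 and Syk turn in at least 1 genotype with quantile normalization.

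Markers of other cells moved with the same comparison. Of 9 measured monocyte and macrophage markers 9 fell in each genotype, and their summed intensity went from 10948 to 16845 on untreated arrays to 1042 to 1484 with dead cells. The summed neutrophil list, of which 5 of 9 fell in WT cells, went from 1404 to 20818 to 588 to 820, and that of 6 B cell markers from 461 to 1427 to 198 to 339. Mertk, at 15.8 in WT cells, was the one macrophage marker with a mean under 16 with dead cells. The sum of the 8 cDC1 markers went from 38602 to 45620 to 20161 to 22682. Inpp5d, Plcg2, Fgr and the receptor genes above are also expressed by such cells, and the part of these cells in the falls was not tested. In sorted bulk samples fewer cells of a type and less RNA per cell cannot be told apart.

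Between the untreated genotypes the sums of the macrophage, neutrophil and CD11b+ dendritic cell lists overlapped, and that of the cDC1 list, which holds Clec9a, did not. The macrophage sum was 10948 to 16845 in WT and 12971 to 14138 in Clec9a gfp/gfp arrays, and the neutrophil sum 7989 to 13715 and 1404 to 20818. Most of the neutrophil sum was S100a8, at 9685 ± 2707 in WT and 9919 ± 9449 in Clec9a gfp/gfp cells (SD, n = 3 each). Its overlap therefore reflects mainly that gene. The CD11b+ dendritic cell sum was 3690 to 5352 in WT and 4481 to 6546 in Clec9a gfp/gfp arrays. The median difference of the list's markers, Clec9a gfp/gfp minus WT on the log2 scale, was 0.02 for macrophages, 0.30 for neutrophils and 0.34 for CD11b+ dendritic cells. Among the latter Cd209a was 488 ± 154 in WT and 869 ± 466 in Clec9a gfp/gfp cells, and Mgl2 227 ± 64.4 and 398 ± 176 (SD, n = 3 each). The other markers of that list differed less. Itgam was 1161 ± 317 and 1543 ± 207, Sirpa 2346 ± 451 and 2539 ± 315, and Irf4 59.8 ± 21.4 and 71.9 ± 8.72. Clec4a4, at 10.9 ± 1.38 and 9.60 ± 1.84, went the other way. With dead cells the CD11b+ dendritic cell sum was 713 to 805 in WT and 847 to 899 in Clec9a gfp/gfp arrays, without overlap. The neutrophil sum was 588 to 762 and 772 to 820 there, also without overlap. The macrophage sums with dead cells, 1087 to 1356 and 1042 to 1484, overlapped. No marker of these 3 lists was called between the genotypes, untreated or with dead cells. Their part in the differences in Fgr was not tested.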

How the data were processed

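The 12 arrays, Affymetrix whole-transcript, fall into 4 groups of 3 by the titles in the labels. The deposited intensity values of 23238 rows are linear, as read from the values. The submitters' processing notes name build mm8. How the authors summarised, corrected and normalized the intensity is not given in the sources used here. Medians were 93.6 to 101 on untreated arrays and 77.9 to 85.9 with dead cells. Precision is limited by the number of arrays. No batch is given in the labels.

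Rows were named from the platform annotation, updated through gene IDs to RefSeq of GRCm38.p6. Of the rows, 14939 had 1 symbol (14884 matched by gene ID), 989 several and 7310 none. Where a gene had several rows, the brightest was used. A single limma 3.58.1 fit (lmFit, eBayes, two-sided, R 4.3.3) of log2(intensity + 16) took all 12 arrays and estimated 4 group means, and p-values were adjusted over all rows of a comparison. The smallest p that an exact permutation of 3 against 3 arrays allows is 0.1, so limma's adjusted p-values are printed. The fit was tested on simulated data. Alternatives were pseudocounts of 1 and 64, plain log2, quantile normalization, a shift to one median, array weights, eBayes with trend and robust settings, the brightest row of each gene only, a filter on the dimmest 25% of rows, only the arrays compared, a replicate block and each array left out.

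The genes, lists and fit were chosen with earlier results of these data known. Named by rule were all 8 genes, Clec9a, up to 4 genes per list with the smallest p for the response averaged over genotypes, list genes called between genotypes, and the 2 nearest profiles per gene. The other marker lists covered 6 pDC, 6 CD11b+ dendritic cell, 8 mast cell and basophil, 7 T and NK cell and 8 stromal markers. In WT cells 3, 1, 1, 1 and 0 of them rose and 1, 5, 6, 1 and 7 fell.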

Additional observations from a re-analysis of the deposited data

Results flagged for a closer look

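Clec7a, which encodes dectin-1, a receptor that signals through Syk, responded differently in the genotypes by the test of the difference itself. Clec7a and the targeted Clec9a both lie on chromosome 6, so an effect of the altered locus cannot be told apart from the lack of DNGR-1. The Clec9a gfp/gfp response minus the WT response was -2.09 ± 0.21 (adjusted p = 0.0219 in limma), from a WT response of 0.64 and a Clec9a gfp/gfp response of -1.45. The call was lost with a pseudocount of 1 and with the replicate block, where no row was called, and kept in the other 8 of 10 alternatives, with adjusted p up to 0.0933. Leaving out an array kept the call in 2 of 12 cases, with adjusted p from 0.00111 to 0.132 and a difference of -2.27 to -1.99. None of the 8 Syk pathway genes was flagged, and groups of 3 arrays are too small for the check of single samples.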

How the results depend on the processing

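Malt1, Inpp5d, Plcg2 and Fgr kept their direction and their call in both responses under all 11 alternatives and without each array. Syk and Card9 reversed with quantile normalization, to 0.32 and 0.33 in WT and to 0.13 and 0.11 in Clec9a gfp/gfp cells; whether the deposited or the quantile scale is nearer to RNA amounts was not tested. Of 1088 repeated values of the 8 genes in 6 comparisons, 1020 kept direction or stayed uncalled, 61 lost and 3 gained a call, and 4 reversed. The 1 member called between untreated genotypes, Fgr, became 0 with a pseudocount of 1, plain log2, quantile normalization and only the arrays compared, and the 1 called in the average became 0 with a pseudocount of 1 and plain log2; the difference kept its sign. Without each array in turn the number of the 8 genes called was 5 to 6 in WT, 5 to 7 in Clec9a gfp/gfp cells, 0 to 1 between untreated genotypes and in the average, and 0 otherwise. Over all rows, 7 were called untreated (2 to 21 over the alternatives), 12 in the average (3 to 23), 1 with dead cells (0 to 5) and 1 in the difference in response (0 to 2). Of 18 pairs of arrays with the same number in different groups, 2 had deviations correlated over 0.1. The median correlation was 0.002 for these pairs and -0.0006 for pairs with different numbers. No pairing by number was seen, but with groups of 3 arrays this check cannot exclude one. With the replicate block the calls of Card9 in WT cells (adjusted p = 0.0778 in limma) and Syk in Clec9a gfp/gfp cells (0.0648) were lost, and 5 of the 8 genes were called in WT, 6 in Clec9a gfp/gfp cells, 0 between untreated genotypes, 0 in the average and 0 in the difference in response.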
